A study of Mus musculus with 12 samples.

Results

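The levels of 34 genes of glycolysis and glycogen metabolism were followed in astrocytes and in the other cells of the mouse brain. The genes were chosen by name and not by a measured value, although earlier results of these data were known. All 34 of 34 were found among the 41388 genes of the files. They encode glucose transporters (2 genes), hexokinases (2), enzymes of upper glycolysis (7) and lower glycolysis (6), and lactate dehydrogenase subunits (2). The others encode the PFKFB enzymes that set the level of fructose 2,6-bisphosphate (4), glycogen synthesis proteins (5), glycogen phosphorylases (3) and kinases that switch off pyruvate dehydrogenase (3). All 34 passed the filter on low counts in every comparison.

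The libraries came from 7-month-old mice on a C57BL/6 background in which Bmal1 (Arntl in the files) was floxed; it encodes a transcription factor at the core of the circadian clock. Bmal1 astrocyte knockout mice (aKO) also carried ALDH1L1-CreERT2, a tamoxifen-inducible Cre recombinase driven by a gene active in astrocytes, and their Cre-negative counterparts were called wild type (WT). Both genotypes were given tamoxifen when 2 months old, 2 mg daily on 5 days, so WT mice had the floxed alleles and the drug but no Cre. After enzymatic digestion, beads against the astrocyte surface antigen ACSA-2 held back the astrocytes, and the cells that passed are called flowthrough. Astrocytes came from 5 aKO mice (203, 205, 208, 221 and 222) and 3 WT mice (201, 202 and 265). Flowthrough came from aKO 203 and 205 and from WT 201 and 202, so that 4 animals gave both fractions. Astrocyte library 202 was WT by its title and knockout by its genotype field. It stayed in the WT group, and results that change when it is counted as aKO are given with that value. All flowthrough titles carry a letter b of unstated meaning, and whatever it marks cannot be told apart from the fraction.

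Glycolysis splits glucose into pyruvate, and lactate dehydrogenase interconverts pyruvate and lactate. Phosphofructokinase is its main controlled step and is activated by fructose 2,6-bisphosphate. In the brain, glycogen is held mostly in astrocytes, where glycogen phosphorylase releases glucose units that can be used at once or passed to neurons as lactate. BMAL1 binds, with CLOCK, to the E-box sequence CACGTG.

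Astrocyte libraries held 21816637 to 62655238 counts and flowthrough libraries 33019572 to 53868165. The 10 astrocyte markers together held 0.274% to 0.773% of the counts in aKO astrocytes and 0.282% to 0.769% in WT astrocytes, against 0.0291% to 0.275% in flowthrough. The 8 microglial markers went the other way, with 0.0283% to 0.0572% in astrocytes and 0.505% to 0.987% in flowthrough. Oligodendrocyte markers were held by the bead fraction as well, at 0.334% to 2.26% of its counts. Of all markers in these lists, only the leukocyte gene Ms4a1 was at 0 in a library, aKO astrocytes 221. Libraries stood apart on several counts. WT flowthrough 202 had the highest astrocyte marker share of the flowthrough libraries (0.275%), aKO flowthrough 205 had the lowest (0.0291%), and astrocyte libraries aKO 222 and WT 265 had the lowest shares of astrocyte markers among the 8 (0.274% and 0.282%). Ttr, a choroid plexus transcript, took 1.20% to 17.0% of astrocyte counts and 8.17% to 32.1% of flowthrough counts. Arntl had 5.05 to 25.0 CPM (counts scaled to the library total) in aKO astrocytes and 2.13 to 6.80 CPM in WT astrocytes. Because the count covers the whole gene, with the exons that Cre does not remove, it checks neither the deletion nor the genotype. Xist was counted 2044 times in aKO astrocytes 221 and 972 times in aKO astrocytes 222, and at most 46 times in any other library. Both high libraries were aKO, so the animal trait that Xist marks was not balanced between the genotypes. The test between genotypes had no term for it, and no alternative left out both libraries. In these bulk samples, fewer cells of a type and less RNA per cell cannot be told apart.

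The window from 250 bases before to 50 bases after an annotated transcription start, taken from RefSeq (GRCm38.p6), was available for 33 of the 34 genes. The letters CACGTG, a palindrome and therefore the same on both strands, occurred in 6 of these 33 genes (18.2%), against 2187 of 27025 genes (8.09%) with such a window and 2349 of 32851 windows (7.15%). They were Ldha, Pdk2, Pfkfb2, Pfkfb3, Pfkm and Ppp1r3c. A gene was counted if any of its windows held the letters, so genes with several windows had more chances. The share among the windows of the members was not counted, so the difference from all genes may partly reflect the number of windows. Pfkm and Ppp1r3c are printed because both were higher in astrocytes, Pfkfb3 because it had the smallest p between genotypes, and Ldha because it holds 2 copies. These genes were chosen after the values were seen. Each runs 5′ to 3′ on the strand of its gene, the start site is base 251, and capitals mark the E-box letters. The Pfkm window (chr15:98092339-98092638, plus strand) is 1 of 4 annotated for the gene, and its E-box begins 136 bases before the start. The Ppp1r3c window (chr19:36736555-36736854, minus strand) has it 104 bases before the start, and the Pfkfb3 window (chr2:11502041-11502340, minus strand), 1 of 2 annotated, 53 bases before. The Ldha window (chr7:46845554-46845853, plus strand), also 1 of 2, has copies 145 and 48 bases before the start. The other windows of Pfkm, Pfkfb3 and Ldha hold no E-box.
Pfkm: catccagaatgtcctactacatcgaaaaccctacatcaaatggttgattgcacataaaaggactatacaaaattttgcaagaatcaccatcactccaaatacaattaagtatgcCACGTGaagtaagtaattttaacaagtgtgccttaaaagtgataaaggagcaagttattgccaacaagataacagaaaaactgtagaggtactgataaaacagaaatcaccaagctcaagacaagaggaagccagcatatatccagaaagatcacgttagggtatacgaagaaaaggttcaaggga
Ppp1r3c: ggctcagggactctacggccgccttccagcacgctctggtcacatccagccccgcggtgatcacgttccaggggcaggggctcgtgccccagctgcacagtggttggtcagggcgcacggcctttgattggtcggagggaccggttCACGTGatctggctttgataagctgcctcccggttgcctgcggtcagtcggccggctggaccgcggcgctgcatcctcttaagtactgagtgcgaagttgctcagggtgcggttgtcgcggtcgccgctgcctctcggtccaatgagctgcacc
Pfkfb3: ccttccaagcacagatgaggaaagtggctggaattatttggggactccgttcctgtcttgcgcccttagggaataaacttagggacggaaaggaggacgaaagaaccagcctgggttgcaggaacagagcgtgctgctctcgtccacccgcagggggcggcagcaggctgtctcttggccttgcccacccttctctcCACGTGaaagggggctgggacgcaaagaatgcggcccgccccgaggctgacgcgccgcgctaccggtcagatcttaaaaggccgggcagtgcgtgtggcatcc
Ldha: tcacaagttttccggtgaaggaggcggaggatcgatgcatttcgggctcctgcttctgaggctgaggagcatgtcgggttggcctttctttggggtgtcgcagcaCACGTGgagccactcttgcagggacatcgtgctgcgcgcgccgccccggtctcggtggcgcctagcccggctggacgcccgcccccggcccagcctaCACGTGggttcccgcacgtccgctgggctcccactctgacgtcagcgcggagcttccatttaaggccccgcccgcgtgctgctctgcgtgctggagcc
These matches describe letters in the window and not binding.

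Per annotated exon length, a few glycolytic genes stood far above the other members in the astrocyte fraction. That length differs unevenly from the longest transcript (Eno1 5379 against 2027 bases, Gapdh 2565 against 1420, Pkm 2599 against 2432). The order of the genes depends on it. On the deposited RPKM scale, Aldoc, the brain aldolase and a marker of astrocytes, had a level of 1189 ± 728 (SD, n = 8 astrocyte libraries), and Ldhb, the lactate dehydrogenase subunit of the heart type, had 1015 ± 226. These levels did not differ beyond their spread. Next came Aldoa at 567 ± 154 RPKM, then Pkm, the pyruvate kinase gene, at 337 ± 170 and Gapdh at 335 ± 52.0. Eno1 followed at 238 ± 97.4 RPKM. Hexokinases and the PFKFB enzymes were far lower, from Hk1 at 5.38 ± 2.07 RPKM to Pfkfb1 at 0.15 ± 0.12, which was the lowest of the 34. In flowthrough Ldhb led with 982 ± 507 RPKM (n = 4), ahead of Aldoa with 550.2 ± 283 and Gapdh with 359 ± 207, while Aldoc spread from 9.05 to 911.

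**Figure D1:**
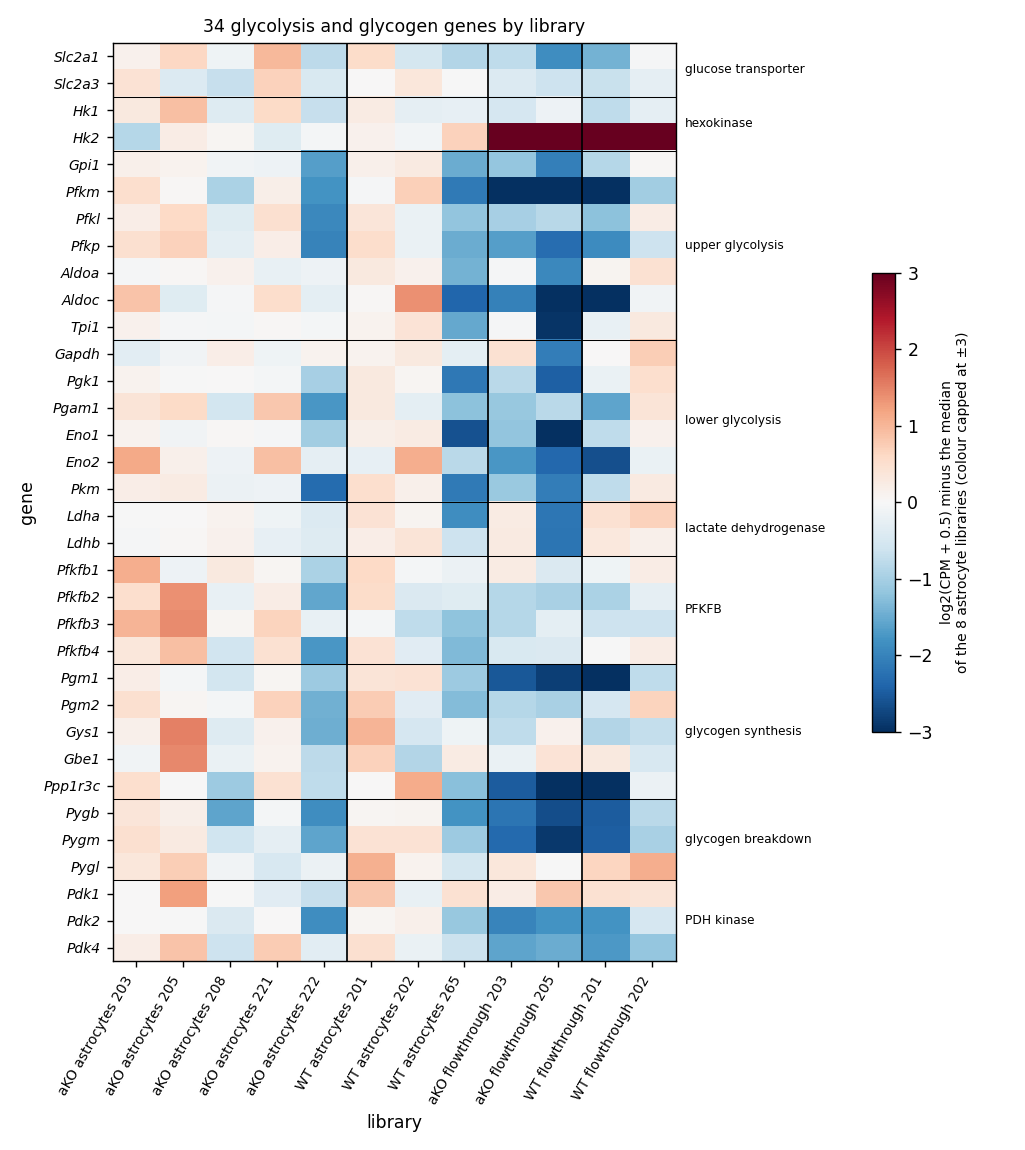
Levels of the 34 genes in each of the 12 libraries, ordered by step. Colour gives log2(CPM + 0.5) minus the median of the 8 astrocyte libraries, with astrocyte libraries left of flowthrough and aKO left of WT within each fraction; Hk2 runs opposite to most other genes, and aKO 222 and WT 265 are low in 13 genes together.

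Isozymes of some steps divided differently between the fractions, while those of other steps had similar shares in both. Hk2, the insulin-responsive hexokinase, made up 19.5% ± 8.16 (SD, n = 8) of the summed Hk1 and Hk2 RPKM in astrocytes and 84.6% ± 8.40 (n = 4) in flowthrough. The lowest flowthrough share (72.7%, WT 202) was above the highest astrocyte share (31.8%, WT 265). Pfkm, the muscle-type phosphofructokinase, was the main phosphofructokinase RNA in astrocytes with 70.1% ± 7.63 of the RPKM of the 3 genes, and had 44.3% ± 12.0 in flowthrough, where Pfkl and Pfkp had the rest. Among the glycogen phosphorylases, the brain form Pygb had 51.0% ± 6.61 of RPKM in astrocytes and 52.8% ± 3.47 in flowthrough. The muscle form Pygm had 45.3% ± 5.82 of RPKM in astrocytes and 33.6% ± 1.37 in flowthrough, with no overlap between the libraries, and the liver form Pygl stayed below the other 2 in every library. Ldhb gave 92.2% ± 1.82 of lactate dehydrogenase RPKM in astrocytes and 90.7% ± 1.67 in flowthrough. Slc2a1 gave 98.2% ± 0.842 of the summed Slc2a1 and Slc2a3 RPKM in astrocytes and 97.6% ± 0.991 in flowthrough. Aldoc had 63.3% ± 11.6 of the summed Aldoa and Aldoc RPKM in astrocytes and 23.4% ± 22.2 in flowthrough, with overlap between the libraries. These shares are descriptions without a test. Their size depends on the annotated exon lengths, which were the same for both fractions. For Hk1 that length was 8532 bases against a longest transcript of 4278, and for Hk2 5969 against 5513. For Pfkp it was 9395 against 4145, and for Pfkm 2957 against 2879.

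In astrocytes, no gene of the 34 passed the test between aKO and WT (0 of 34; edgeR quasi-likelihood test, Benjamini-Hochberg adjusted p under 0.05), beside 5 of 18950 genes tested in all, or 0.0264% (0.0211% higher and 0.00528% lower). DESeq2 and limma voom also called 0 of the 34. At an unadjusted p under 0.05 there was 1 member (2.94%), against 299 of all genes (1.58%). The estimates lay above 0 for 16 genes and below 0 for 18, with a median log2 fold change of -0.04 for the 34 genes and 0.02 for all genes tested. They ran from -0.62 (Hk2) to 1.19 (Pfkfb3). No gene had separate CPM ranges in aKO and WT astrocytes (0 of 34, against 1.41% of all genes tested, 1.07% higher and 0.343% lower). Ranges were not compared on the TMM scale that the test used.

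Pfkfb3 (chr2:11471430-11502101, minus strand, GRCm38), the PFKFB isoform with the strongest kinase activity, was the member with the smallest p. It had 34.0, 45.4, 17.2, 26.7 and 14.2 CPM in aKO astrocytes 203, 205, 208, 221 and 222, against 16.0, 9.60 and 6.95 CPM in WT astrocytes 201, 202 and 265. In CPM, all aKO libraries except 222 were above all WT libraries, and 222 was above 2 of the 3. With CPM scaled by the TMM factors of the test, 222 ranked 5 from the lowest of the 8 astrocyte libraries, against 3 in CPM. The overlap in CPM therefore depends on the scaling of the libraries. The log2 fold change was 1.19 (SE 0.36, unadjusted P 0.00452), a size at the 97.9th percentile of all genes tested, but the edgeR adjusted p was 0.9997. Under 16 alternative settings it stayed between 1.02 and 1.41, with adjusted p-values from 0.548 to 1, so the direction held while the call was not made in any of them. The related Pfkfb1, Pfkfb2 and Pfkfb4 had aKO ranges of 0 to 1.56, 1.70 to 16.2 and 4.52 to 30.8 CPM, which overlapped WT ranges of 0.361 to 0.974, 4.35 to 9.03 and 6.26 to 22.0 CPM. Pfkfb2 also shares exon sequence with Yod1 on the opposite strand.

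Hk2 came second by p, with 3.58, 8.13, 7.27, 5.25 and 6.61 CPM in aKO astrocytes (in the same order of animals), against 7.60, 6.56 and 11.5 CPM in WT astrocytes; the ranges overlapped and the log2 fold change was -0.62 (SE 0.39). The glycogen genes lay mostly below 0. The 3 phosphorylases all had estimates below 0 (median -0.33), as did 4 of the 5 synthesis genes, but none passed. Ppp1r3c, which brings protein phosphatase 1 to glycogen and so promotes its synthesis, had 65.8, 45.5, 21.5, 63.4 and 26.7 CPM in aKO astrocytes and 46.6, 101 and 19.0 CPM in WT astrocytes. Its high WT value was that of library 202: the log2 fold change was -0.50 (SE 0.48), but 0.41 without that library and 0.78 with it counted as aKO. Pgm1, a phosphoglucomutase that links glucose 1-phosphate and glucose 6-phosphate, had 36.8 to 90.0 CPM in aKO astrocytes and 36.5 to 107 CPM in WT astrocytes, with a log2 fold change of -0.41 (SE 0.38). Pygm had 29.7 to 126 CPM in aKO astrocytes and 42.2 to 123 CPM in WT astrocytes, with a log2 fold change of -0.43 (SE 0.43). With library 202 counted as aKO, these 2 estimates became 0.14 for Pgm1 and 0.10 for Pygm. Pdk1, a kinase that inhibits pyruvate dehydrogenase, was also among the 6 with the smallest p. It had 6.65 to 26.8 CPM in aKO astrocytes and 9.33 to 19.6 CPM in WT astrocytes (-0.40, SE 0.37). All 6 had an edgeR adjusted p of 0.9997.

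The split between higher and lower estimates moved with the libraries used. Without aKO 222 and WT 265 it was 10 above and 24 below 0 (median -0.33), and without WT 265 alone 7 above and 27 below (median -0.27). With library 202 counted as aKO it was 27 above and 7 below (median 0.19), and with DESeq2's size factors 13 above and 21 below. Of the 6 genes with an E-box in the window, 3 had estimates above 0 and 3 below in astrocytes. In flowthrough 1 was above 0 and 5 below, and for the difference of both effects, which shares these libraries, 6 were above 0. All 8 oligodendrocyte markers had estimates above 0 in aKO astrocytes (median 0.92) and all 8 ependymal markers below 0 (median -0.78). Endothelial markers were above 0 as well (8 of 8, median 0.42), and choroid plexus markers (6 of 6, median -0.21) and most astrocyte markers (7 of 10, median -0.12) below. None of these markers passed the test. Their part in the estimates of the glycolytic genes was not tested.

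**Figure D2:**
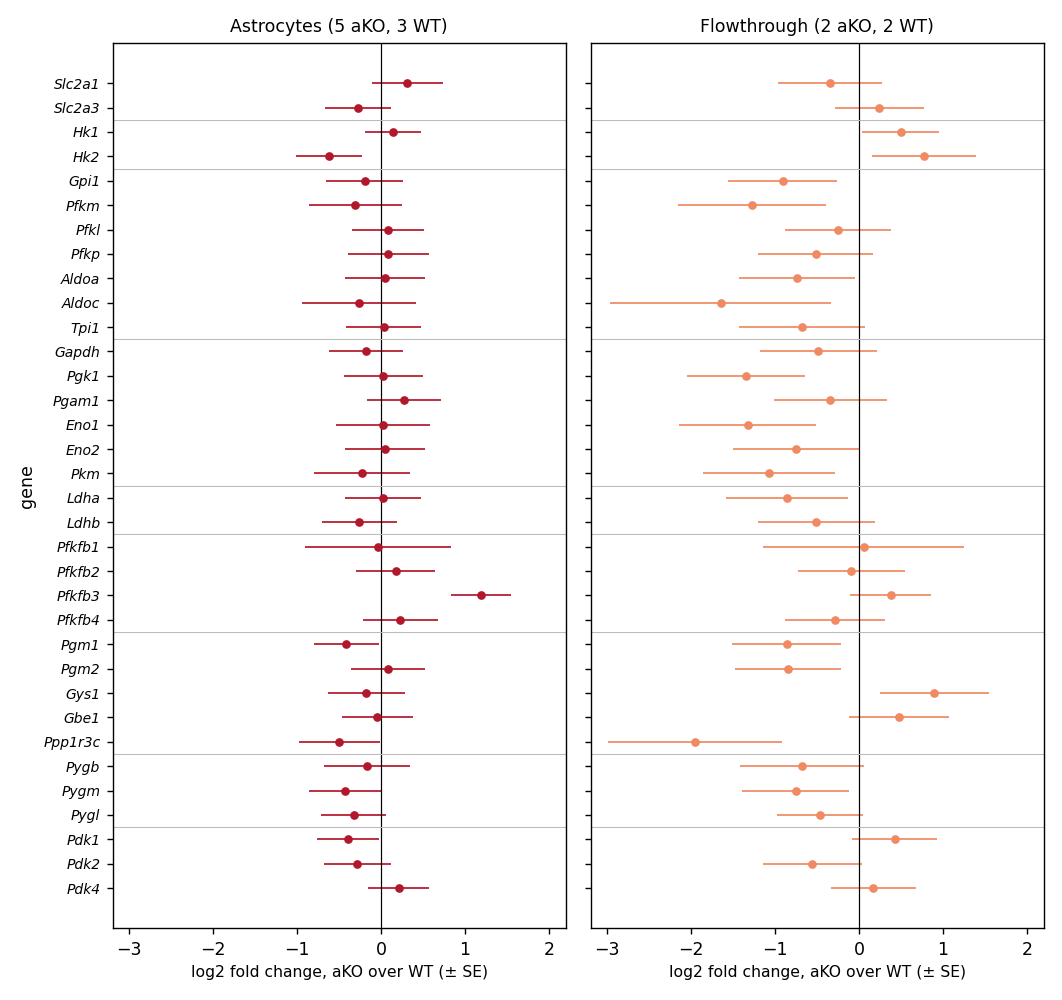
Log2 fold change of aKO over WT for each of the 34 genes in astrocytes and in flowthrough, with bars of 1 standard error. No gene passed the test in either fraction; Pfkfb3 stands at 1.19 in astrocytes, and most flowthrough estimates lie below 0.

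Astrocyte libraries aKO 222 and WT 265 were low through much of the pathway, although they belong to different genotypes. Both were the lowest pair of the 8 libraries in CPM for 19 of the 34 genes (55.9%), against 23.4% of all genes tested. Library 222 was below the other 6 for 23 genes (67.6%, against 38.7% of all genes) and 265 for 26 (76.5%, against 33.5%). Of the 34 genes, 29 had a mean of at least 10 CPM. Among genes at that level both libraries were lowest for 18 of the 29 (62.1%), against 34.3% of all genes. There 222 was below the other 6 for 72.4% of the members, against 49.4% of all genes, and 265 for 82.8%, against 43.6%. Relative to the median of the 8 libraries, the median log2 difference over the 34 genes was -0.87 in 222 and -1.16 in 265, and between -0.16 and 0.30 in the other 6. Over all genes tested the same measure was -0.25 in 222 and -0.15 in 265, and over those with a mean of at least 10 CPM it was -0.41 and -0.30, against -0.99 and -1.22 for the members at that level. With TMM-scaled CPM, which set the median of all genes near 0 in both libraries (-0.01 and 0.01), the 34 genes remained at -0.46 in 222 and -0.67 in 265, and 14 had both libraries lowest (41.2%, against 14.1% of all genes). The low level was also seen outside the 34 genes, in other genes of the same metabolism. Tkt had 60.2 CPM in 222 and 99.6 CPM in 265, against 215 to 370 CPM in the other 6. Dld had 23.0 and 20.6 CPM, against 84.9 to 148 CPM. Mpc1 did not share it, with 135 and 198 CPM against 99.5 to 189 CPM. How many of these other genes were low was not counted. As these libraries are not a group of the study and were picked for being low, no test was made of them.

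The low level was not shared by all steps. The shares of all genes under the limit used here, 50% of the 8-library median, were not counted. The counts at this limit therefore describe the members only. In 13 genes both libraries were under 50% of the 8-library median. They covered glucose phosphate isomerase (Gpi1), the 3 phosphofructokinases, Pgam1, Eno1 and Pkm of lower glycolysis, Pfkfb4, both phosphoglucomutases, the phosphorylases Pygb and Pygm, and Pdk2. Pkm was among the lowest, with 200.2 CPM in 222 (20.1% of the median) and 229 CPM in 265 (23.0%), against 878 to 1404 CPM in the other 6. Pfkm stood at 28.8% of the median in 222 and 22.9% in 265, and Pygb at 27.1% and 28.5%. With TMM-scaled CPM, 8 of these 13 genes were still under 50% in both: Gpi1, Pfkm, Pfkl, Pfkp, Pkm, Pfkfb4, Pgm2 and Pygb.

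Other steps differed between the libraries. In 7 genes only WT 265 was under 50% of the median: Aldoa, Aldoc, Tpi1, Pgk1, Ldha, Pfkfb3 and Ppp1r3c. Among these Pgk1 was low in both, since 222 stood at 50.3%, just outside the limit and second lowest of the 8, and 265 at 22.3%. Aldoc had 2632 CPM in 222 (81.8% of the median) and 615 CPM in 265 (19.1%), and triose phosphate isomerase, Tpi1, had 267 CPM in 222 (96.0%) and 95.7 CPM in 265 (34.5%). Aldoa stood at 90.5% in 222 and 37.5% in 265. Ldha, which encodes the muscle-type lactate dehydrogenase subunit, was at 75.1% in 222 and 27.3% in 265. Eno1, counted above as low in both, was at 48.8% and 16.4%. In 3 genes only aKO 222 was low, namely Pfkfb1 (not counted at all), Pfkfb2 and Gys1, the muscle-type glycogen synthase, at 33.2% in 222 and 91.5% in 265. The remaining 11 genes were under 50% in neither, but not all of them were near the median. Slc2a1, the main glucose transporter of the blood-brain barrier and astrocytes, stood at 57.8% in 222 and 54.4% in 265, again the lowest pair. Gapdh was at 108% in 222 and 81.3% in 265, Ldhb at 76.0% and 64.7%, and Hk2 at 95.3% and 166%.

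**Figure D3:**
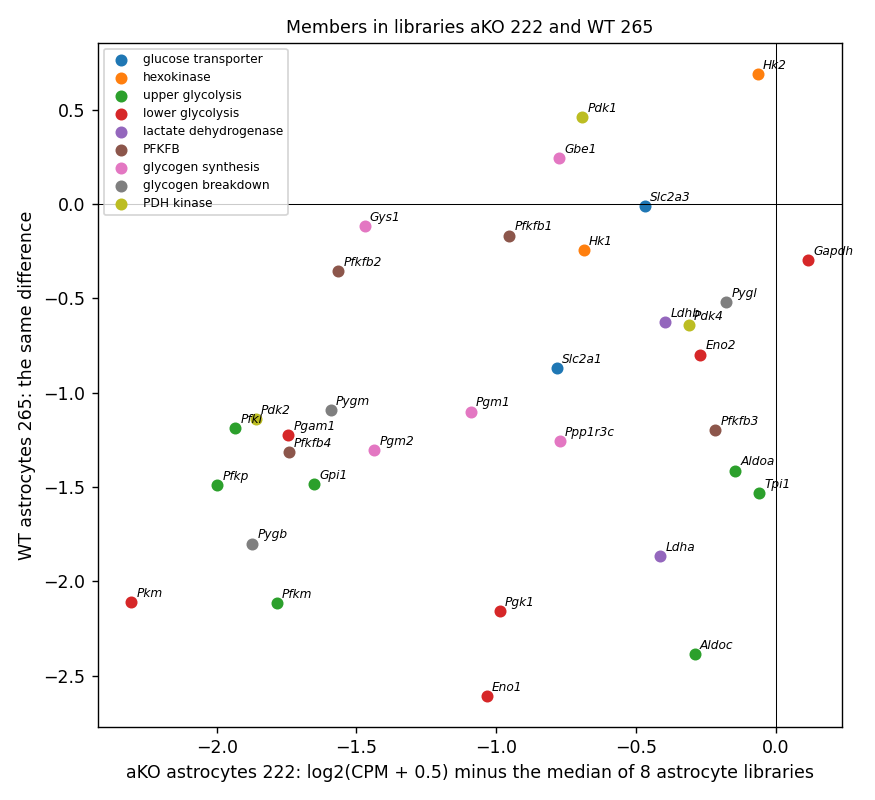
Each point is a gene, coloured by step, at its log2(CPM + 0.5) minus the median of the 8 astrocyte libraries in aKO 222 (horizontal axis) and in WT 265 (vertical axis). Phosphofructokinases, Pkm, Pygb and Pdk2 are low in both (lower left), while Aldoc, Aldoa, Tpi1 and Ldha are low in 265 only.

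The same 2 libraries had 0.274% (222) and 0.282% (265) of counts in astrocyte markers and 0.354% and 0.334% in oligodendrocyte markers, the lowest shares of the 8 for both lists. Mitochondrially encoded genes took 36.4% of counts in 222, the most of all libraries, and 19.2% in 265. Ttr took 17.0% in 265, the most among astrocyte libraries, and 5.18% in 222. Leaving these mitochondrial genes and Ttr out of the total left 15 genes (44.1%, against 17.1% of all genes) with both libraries lowest. The part of cell composition in the low level was not tested.

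Between the fractions, 7 of the 34 genes differed past the threshold: 6 were higher in astrocytes than in flowthrough and 1 was lower (edgeR, adjusted p under 0.05). That is 20.6% of the members, beside 17% of all genes tested (3517 of 20637), with 8.52% higher and 8.52% lower. The median log2 fold change was 0.36 over the 34 genes and 0.07 over all genes tested. At an unadjusted p under 0.05 there were 11 members (32.4%), and 32.0% of all genes. These fractions differ in cell types by design, and 9 of the 10 astrocyte markers were called higher (median log2 fold change 2.48) and 8 of 8 microglial markers lower (median -4.24). Oligodendrocyte markers (6 of 8 called, median 1.84) and mitochondrially encoded genes (10 of 15, median 1.73) were higher too, and leukocyte (8 of 8, median -3.83) and erythroid markers (5 of 5, median -3.50) lower. Their part in the calls of the 34 genes was not tested.

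Hk2 (chr6:82725025-82774454, minus strand, GRCm38), which phosphorylates glucose and can attach to mitochondria, was the lower one. It had 3.58, 8.13, 7.27, 5.25 and 6.61 CPM in aKO astrocytes 203, 205, 208, 221 and 222 and 7.60, 6.56 and 11.5 CPM in WT astrocytes 201, 202 and 265. In flowthrough it had 116 and 225 CPM in aKO 203 and 205 and 177 and 63.8 CPM in WT 201 and 202. No astrocyte library reached any flowthrough library. The log2 fold change was -4.58 (SE 0.40, edgeR adjusted p 2.95e-06), or 23.8-fold lower in astrocytes, and it was lower in 4 of 4 animals that gave both fractions. It passed in 21 of 21 alternatives run, with log2 fold changes from -4.89 to -4.05. Hk1, the hexokinase of most brain cells, did not pass, with 25.7 to 78.0 CPM in astrocytes and 24.4 to 37.2 CPM in flowthrough.

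Among the glycogen genes, 3 were higher in astrocytes. Ppp1r3c (chr19:36731737-36736653, minus strand) had 65.8, 45.5, 21.5, 63.4 and 26.7 CPM in aKO astrocytes and 46.6, 101 and 19.0 CPM in WT astrocytes, against 7.80 and 1.12 CPM in aKO flowthrough and 2.38 and 40.6 CPM in WT flowthrough. WT flowthrough 202 lay within the astrocyte range and the other flowthrough libraries below it. Its log2 fold change was 2.18 (SE 0.69, edgeR adjusted p 0.0394).

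Pgm1 (chr4:99929414-99987294, plus strand) had 90.0, 76.2, 53.6, 81.5 and 36.8 CPM in aKO astrocytes and 103, 107 and 36.5 CPM in WT astrocytes, against 13.1 and 10.7 CPM in aKO flowthrough and 8.92 and 46.0 CPM in WT flowthrough. Again only WT flowthrough 202 reached the astrocyte range. Its log2 fold change was 1.81 (SE 0.43, edgeR adjusted p 0.00844), and part of its exons overlaps Itgb3bp on the opposite strand. Pygm (chr19:6384399-6398459, plus strand), the muscle phosphorylase, had 126, 109.9, 59.3, 74.4 and 29.7 CPM in aKO astrocytes and 123, 123 and 42.2 CPM in WT astrocytes. In flowthrough it had 17.6 and 11.8 CPM in aKO and 15.8 and 46.0 CPM in WT. The log2 fold change was 1.79 (SE 0.43, edgeR adjusted p 0.00848).

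Of the glycolytic enzymes, Pfkm and Eno2 were higher in astrocytes. Pfkm (chr15:98092589-98132447, plus strand) had 280.3, 205, 103, 224 and 57.3 CPM in aKO astrocytes and 192, 327 and 45.5 CPM in WT astrocytes, against 24.0 and 12.6 CPM in aKO flowthrough and 14.7 and 96.4 CPM in WT flowthrough. Only WT flowthrough 202 reached above the lowest astrocyte libraries, which were 222 and 265. The log2 fold change was 2.29 (SE 0.60, edgeR adjusted p 0.0149). Part of its exons overlaps Senp1 on the opposite strand, which had up to 19.4 CPM. Eno2 (chr6:124760053-124769673, minus strand), known as neuron-specific enolase, had 120.4, 60.6, 48.9, 102 and 45.1 CPM in aKO astrocytes and 45.6, 116 and 31.1 CPM in WT astrocytes, against 15.9 and 10.3 CPM in aKO flowthrough and 8.38 and 47.2 CPM in WT flowthrough. Its log2 fold change was 1.69 (SE 0.50, edgeR adjusted p 0.0287), and 5 of the 10 neuronal markers were also called higher in the astrocyte fraction. The part of neuronal RNA in the Eno2 level was not tested.

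Pdk4 (chr6:5483351-5496309, minus strand), the pyruvate dehydrogenase kinase induced by fasting in other tissues, was the only member higher in every astrocyte library than in every flowthrough library, which was so for 6.34% of all genes tested; Hk2 alone had the opposite separation (4.51% of all genes). Pdk4 had 12.4, 19.9, 6.72, 18.3 and 8.52 CPM in aKO astrocytes and 15.2, 9.23 and 6.67 CPM in WT astrocytes, against 3.25 and 3.48 CPM in aKO flowthrough and 2.88 and 4.55 CPM in WT flowthrough. The log2 fold change was 1.44 (SE 0.33, edgeR adjusted p 0.00665).

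**Figure D4:**
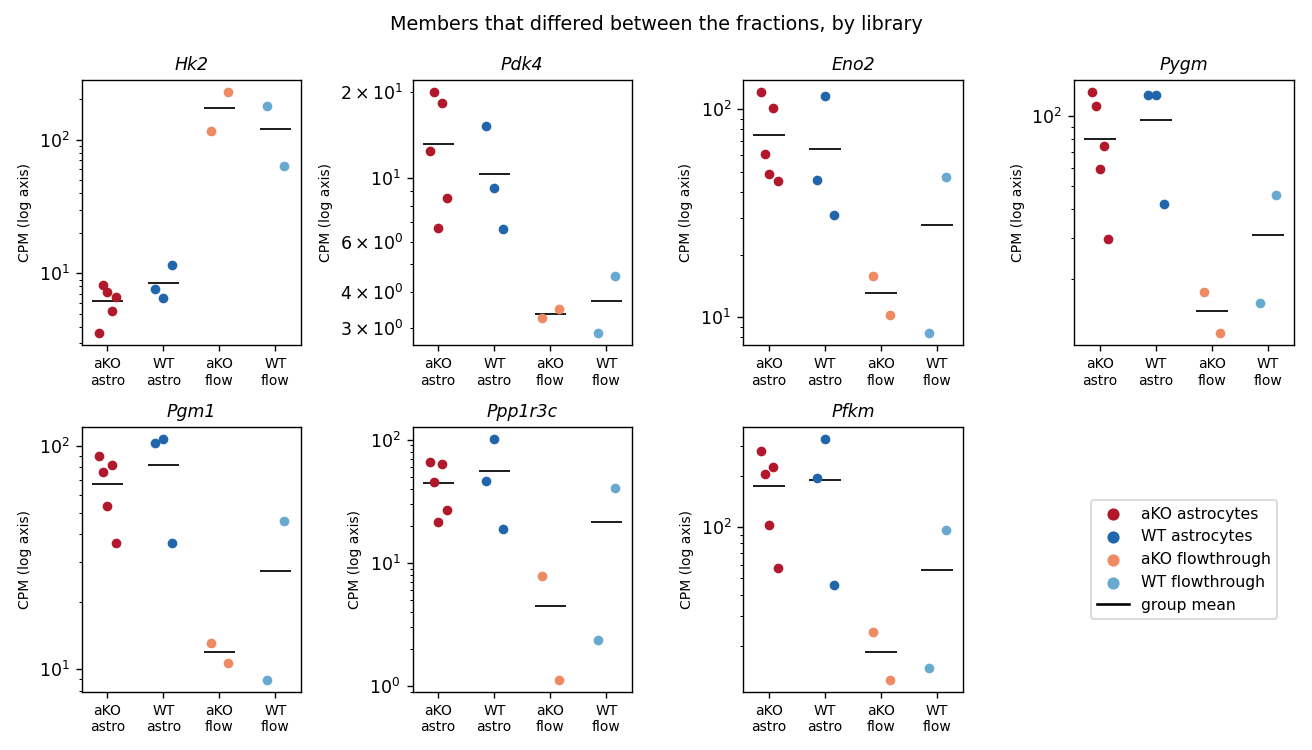
CPM (log scale) in each library of the 7 genes that passed the test between fractions, with astrocyte libraries left of flowthrough and aKO left of WT; points are libraries and lines group means. Hk2 is higher in all 4 flowthrough libraries, and WT flowthrough 202 lies closest to the astrocytes in the other genes.

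The remaining 27 genes did not pass between the fractions. Aldoc had 2508 to 5859 CPM in aKO astrocytes and 615 to 8357 CPM in WT astrocytes, against 785 and 29.5 CPM in aKO flowthrough and 148 and 2973 CPM in WT flowthrough. It was higher in astrocytes in 4 of 4 animals that gave both fractions but was not called. In all, 16 of the 34 genes (47.1%) were higher in astrocytes in all 4 animals, against 31.4% of all genes tested, and Hk2 was the only one lower in all 4 (2.94%, against 14.5%). When the animal was a block in the fit of the 8 libraries of these 4 animals, 12 genes were called (35.3%, against 29.5% of all genes tested), the 7 above and Pfkp, Aldoc, Pfkfb2, Pygb and Pdk2. The same 8 libraries without the block gave 9 (26.5%, against 17.6% of all genes), with Ppp1r3c not among them. Calls also depended on single flowthrough libraries. Without WT flowthrough 201 only Hk2 was called (1691 of all genes), although the log2 fold changes of the 6 other genes stayed between 1.32 and 1.91. Without aKO flowthrough 205 Pfkm (2.14), Eno2 (1.59) and Ppp1r3c (1.80) were not called. Without WT flowthrough 202 the log2 fold changes were larger, at 3.67 for Ppp1r3c, 3.17 for Pfkm, 2.55 for Pgm1 and 2.47 for Eno2. With astrocyte library 202 left out or counted as aKO, Eno2 and Ppp1r3c were no longer called. Ppp1r3c also lost its call without aKO astrocytes 203, 205 or 221, and Eno2 without aKO flowthrough 203. In all, Ppp1r3c passed in 13 of 21 alternatives and Eno2 in 16, with Ppp1r3c between 1.71 and 3.67 and Eno2 between 1.24 and 2.47. Leaving out aKO astrocytes 222 or WT astrocytes 265 added Pfkp, Pygb and Pdk2, for 10 genes called. Calls over all genes rose as well, from 17% to 19.9% without 222 and 19.6% without 265.

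**Figure D5:**
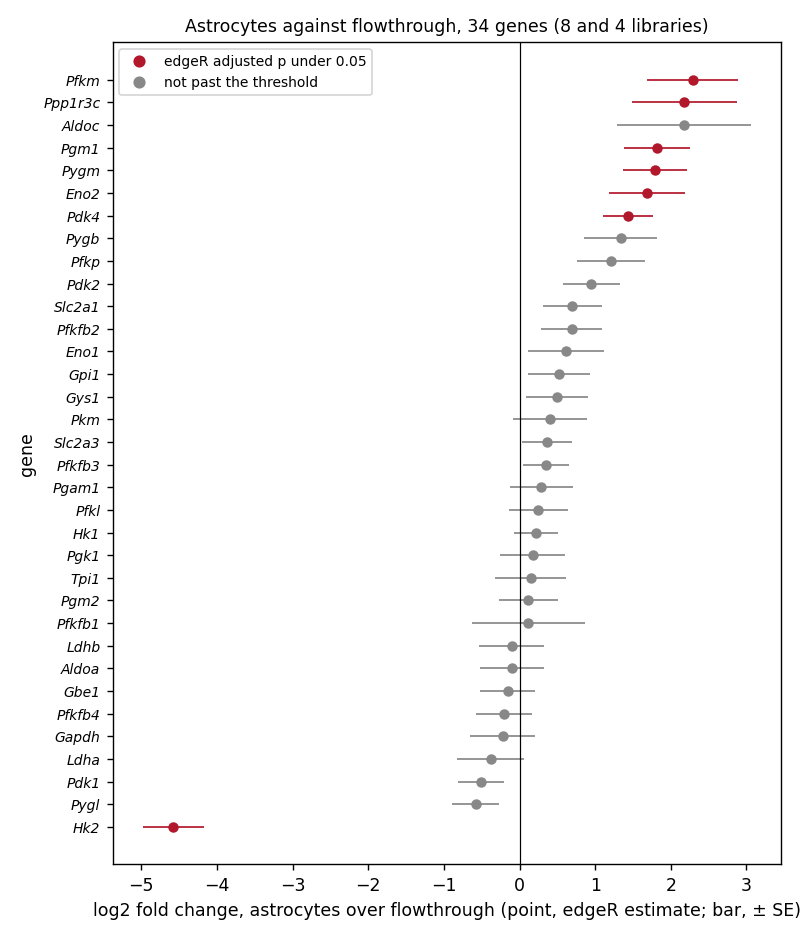
Log2 fold change of astrocytes over flowthrough for each of the 34 genes, with bars of 1 standard error and genes past the threshold marked. Hk2 is at -4.58 and Pfkm at 2.29, the ends of the range.

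In flowthrough, 0 of the 34 genes passed between aKO and WT (edgeR, adjusted p under 0.05), beside 0% of the 20637 genes tested; at an unadjusted p under 0.05 there were 0 members and 817 of all genes (3.96%), and DESeq2 and limma voom called 0 members. Estimates were below 0 for 25 genes and above 0 for 9, with a median log2 fold change of -0.51 over the 34 genes and 0.07 over all genes. Every gene of upper glycolysis (7 of 7, median -0.74) and of lower glycolysis (6 of 6, median -0.91) was below 0. The majority of estimates below 0 rested on WT flowthrough 202. With that library left out, 22 of the 34 estimates were above 0 and 12 below, with a median of 0.19 (0.23 over all genes). Some genes did not depend on it. Pgk1, Eno1 and Gpi1 stayed below 0 whichever single library was left out, with highest values of -0.88, -0.78 and -0.53. Pgk1, which makes the first ATP of the payoff phase, had 146 and 46.9 CPM in aKO flowthrough 203 and 205, against 224 and 368 CPM in WT flowthrough 201 and 202. Its log2 fold change was -1.35 (SE 0.70, unadjusted P 0.0719, edgeR adjusted p 0.804). Eno1 had 649.7 and 168 CPM in aKO flowthrough and 861 and 1600.0 CPM in WT flowthrough (-1.33, SE 0.81), and Gpi1 had 131 and 70.9 CPM in aKO flowthrough and 163 and 299.8 CPM in WT flowthrough (-0.91, SE 0.65). Gys1 had 6.48 and 12.5 CPM in aKO flowthrough and 5.93 and 6.77 CPM in WT flowthrough, with a log2 fold change of 0.90 (SE 0.65). Exons of Gys1 overlap those of Ruvbl2 on the opposite strand, which had up to 59.8 CPM. Ppp1r3c (-1.95, SE 1.04) and Pfkm (-1.27, SE 0.88) turned to 1.04 and 0.47 when WT flowthrough 202 was left out.

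In flowthrough 9 genes had both aKO libraries below both WT libraries (26.5%), namely Gpi1, Aldoa, Pgk1, Eno1, Pkm, Ldha, Pfkfb4, Pgm2 and Pygl, beside 20.3% of all genes tested. Library aKO 205 was the lowest of the 4 for 20 of the 34 genes and WT 202 the highest for 26. The same was not counted over all genes, so this does not set the 34 genes apart. The 34 genes together took 0.810% and 0.222% of counts in aKO flowthrough 203 and 205 and 0.779% and 1.38% in WT flowthrough 201 and 202. All 10 astrocyte markers had estimates below 0 in this comparison (median -1.26), and Ttr took 32.1% of the counts of aKO flowthrough 205. Their part in the lower estimates was not tested.

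The genotype effect did not differ detectably between the fractions for any of the 34 genes (0 of 34, and 0% of 20637; edgeR, difference of the log2 fold changes, adjusted p under 0.05). At an unadjusted p under 0.05 there were 0 members and 499 of all genes (2.42%), and DESeq2 and limma voom called 0 members. This comparison shares its libraries with those above. The 6 smallest p-values belonged to Hk2 (-1.37, SE 0.77), Pgk1 (1.35, SE 0.86), Gys1 (-1.09, SE 0.80), Pfkfb3 (0.80, SE 0.60), Eno1 (1.32, SE 1.001) and Pdk1 (-0.82, SE 0.62), each with an edgeR adjusted p of 0.956. A positive value means a higher aKO over WT ratio in astrocytes than in flowthrough.

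Around these 34 genes, 54 other genes of the same metabolism were read in the same tests. Between aKO and WT astrocytes 0 of 50 tested passed (1 at an unadjusted p under 0.05), as did 0 of 52 in flowthrough (2 at an unadjusted p under 0.05). Between the fractions 9 of 52 passed (17.3%, against 17% of all genes tested), 5 of them higher in astrocytes and 4 lower. That share is close to the one over all genes, and the genes below are given for their own values. Slc16a3, the lactate exporter MCT4, had 0.213 to 1.41 CPM in astrocytes and 3.32 to 6.66 CPM in flowthrough (log2 fold change -3.42, SE 0.44, edgeR adjusted p 5.1e-05), so that it was 10.7-fold lower in astrocytes. Hk3, the hexokinase of myeloid cells, had 0.689 to 6.36 CPM in astrocytes and 10.4 to 14.1 CPM in flowthrough (-2.67, SE 0.48, edgeR adjusted p 0.00101). Hk3, like Hk2, was lower in astrocytes while the 8 microglial markers were lower too, and the part of myeloid cells in this was not tested.

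The muscle enolase Eno3 (-1.54, SE 0.35, edgeR adjusted p 0.00596) and the testis lactate dehydrogenase Ldhc (-1.95, SE 0.62, edgeR adjusted p 0.0398) were also lower in astrocytes. Of 14 other glycogen genes, 2 subunits of phosphorylase kinase were higher in astrocytes. Phka1 had 7.79 to 53.3 CPM in astrocytes and 2.99 to 6.30 CPM in flowthrough (1.93, SE 0.40, edgeR adjusted p 0.00348), and the catalytic subunit gene Phkg1 was higher as well (1.87, SE 0.55, edgeR adjusted p 0.0264). Pdp1, the phosphatase that reactivates pyruvate dehydrogenase, was higher in astrocytes (1.56, SE 0.44, edgeR adjusted p 0.0232), as was Pcx, the pyruvate carboxylase that replenishes the citric acid cycle (1.30, SE 0.42, edgeR adjusted p 0.0450). Of 7 pentose phosphate genes 0 passed, and 0 of them had an unadjusted p under 0.05.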

How the data were processed

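RNA of the 12 libraries was amplified with a SMARTer kit, per the labels' protocols. The deposited files give counts of reads per Ensembl gene, CPM and RPKM that the authors computed. The GRCm38 genome, STAR 2.5.1a, featureCounts 1.4.6-p5, Subread and bcl2fastq are named, with no order, per the submitters' processing notes; the annotation release, strand setting and treatment of reads with several matches are not given in the sources used here. The deposited CPM equalled count over total within 4.4e-10. Strand-blind counting would mix reads of a gene with those of a gene overlapping it on the opposite strand, which 10 of the 34 genes have. Near-identical copies (at least 95% identity over 200 bases) in the files held counts worth 4.09% to 10.7% of those of Gapdh, 2.96% to 12.2% of Eno1, 2.13% to 11.2% of Gpi1 and 1.28% to 7.33% of Pgk1, and copies of 4 other members also had counts.

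Names came from GENCODE vM21 for 40254 of 41388 identifiers. The main test was that of edgeR 4.0.16 under R 4.3.3 (quasi-likelihood, robust, TMM, filterByExpr with minimum count 10 and minimum total 15), two-sided, with Benjamini-Hochberg adjustment over all genes tested and a threshold of 0.05. The genotype comparison in astrocytes used 8 libraries, and the others used a fit of 4 groups to all 12. Standard errors are the log2 fold change over the square root of F. Library medians used log2 of CPM plus 0.5. Scripts were tested on simulated data. The alternatives were DESeq2 1.42.0, its size factors, no filter, limma 3.58.1 voom, library 202 as aKO, single libraries or 222 and 265 left out, mitochondrially encoded genes and Ttr left out, all 12 libraries in 1 fit, and an animal block. The text gives fold changes for every member past the threshold between fractions, for the 6 members with the smallest p in each other comparison, and for other pathway genes past the threshold, 1 of which is not reported here. The members, lists and alternatives were chosen with earlier results of these data known.

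Title numbers were read as animals, so fractions with the same number are from 1 brain. Across genes, the deviations of both fractions from their group means had correlations of -0.0313 (animal 201), 0.513 (202), 0.196 (203) and 0.454 (205). Labels do not say that libraries of a group came from separate litters or days. Only the genotype test in astrocytes had 1 library per animal, so its p-values measure the spread between these animals. The other main comparisons treated all libraries as independent, with no term for animals 201, 202, 203 and 205, which gave both fractions. Their p-values rest on a spread estimated from all groups together, and not on the flowthrough animals alone.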

Additional observations from a re-analysis of the deposited data

Results flagged for a closer look

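In the 5 aKO astrocyte libraries, 1 library lay far from the others for 5 of the 34 genes. The gap was more than 0.71 of the range of the group (Dixon's 95% critical value). Chance flags about 1 in 20 groups, but these genes share the same 5 libraries and are not independent. The share over all genes was not counted, so the flags do not set the 34 genes apart. Library 222 was low for Gpi1 (93.4 CPM, next 266), Pgk1 (130.0 CPM, next 246) and Eno1 (716 CPM, next 1366). Library 205 was high for Gbe1, the glycogen branching enzyme (26.0 CPM, next 9.99), and for Pdk1 (26.8 CPM, next 11.1).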

How the results depend on the processing

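Of 483 values of single genes under an alternative, 459 kept their direction and their side of the threshold, 18 lost their call and 6 reversed. With library 202 counted as aKO, the astrocyte estimates turned to 0.14 for Pgm1, 0.78 for Ppp1r3c and 0.10 for Pygm. Leaving out single libraries gave Ppp1r3c from -0.89 to 0.41 in astrocytes and from -3.84 to 1.04 in flowthrough, and Pfkm from -2.11 to 0.47 in flowthrough, with the positive values from leaving out WT library 202. The cause was not tested. No alternative called a member in either genotype comparison or in their difference. Over all genes, the astrocyte comparison called 8 without a filter, 15 with DESeq2, 0 with library 202 as aKO, 3 without 222 and 265, 1 with all 12 libraries and 0 to 5 when single libraries were left out. In flowthrough it was 45 without a filter and 0 to 1 when libraries were left out, and for the difference of genotype effects 40 without a filter, 1 with the animal as a block and 1 for the same 8 libraries without it. Between the fractions, leaving out single libraries gave 1691 to 4107 genes and 1 to 10 members, and the animal block gave 5951 genes and 12 members; fewer libraries were fitted in each. The block changed no other count of members. The effect of depth was not tested. Pfkfb1 had no count in aKO astrocytes 222, and 2 libraries a group limit flowthrough.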
